A study of Homo sapiens with 4 samples.

Results

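ERRα peaks far from genes were examined in MDA-MB-231, a human breast cancer cell line that lacks the oestrogen receptor ERα. ChIP-seq, the sequencing of DNA pulled down with an antibody to ERRα, was done in 2 replicates, with 2 input libraries of sonicated chromatin as background, from 2 cell culture samples in all. Both groups were cultured alike and fixed with 1% formaldehyde, no treatment is named for either, and the ChIP used 5 µg of antibody. A summit, the highest point of a peak, was counted as a desert summit when it lay over 1 kb from every RefSeq gene of any kind and over 50 kb from the nearest end of a protein-coding gene. Of the 10026 peaks matched between the replicates on chromosomes 1 to 22 and X, 985 had such a summit (9.82%, exact 95% interval 9.25 to 10.4).

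ERRα is an orphan nuclear receptor that binds DNA on its own or as a dimer and works with coactivators of the PGC-1 family. It is best known for genes of mitochondrial energy metabolism, which it often binds close to their promoters. Nuclear receptors also bind far from genes, and many gene deserts, the long stretches between protein-coding genes, carry enhancers of a developmental gene at their edge. A peak in such a stretch does not by itself show which gene, if any, it acts on, so the genes named here are neighbours by position only.

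Not every member lies in a desert in the usual sense of a very long gap. The stretches between protein-coding genes that hold the members had a length of 529 kb at the median member, and 522 of the 985 members lay in stretches over 500 kb. Their median distance to a protein-coding gene end was 133 kb (quartiles 78.4 and 258, range 50.3 to 2174 kb). Non-coding genes were closer, with a median distance of 25.03 kb to a gene of any kind, and 252 members were within 10 kb of one. The word desert is used below for a stretch between neighbouring protein-coding genes that the rule allows, whatever its length.

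The strength of a peak is given as fold enrichment, the authors' ratio of ChIP signal over the local input background at the summit. In the matched list the desert summits had folds of 1.24 to 310 in replicate 1 and 1.18 to 312 in replicate 2, with medians of 8.51 and 8.06. Most were modest peaks, and 106 of the 985 (10.8%) reached a mean fold of 20 or more. This is not particular to deserts. In the whole list of 10026 matched peaks, the peak ranked 1163 by mean fold still had 20.6. The folds of the replicates differed by less than 1.5 times in 904 of the 985 members (91.8%), against 91.0% of all other matched peaks. The summits called in the replicates were within 50 bp of each other in 61.9% of members and in 60.9% of the other peaks. Matching selects peaks found in both replicates, so this likeness describes the list and is not separate evidence.

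**Figure D1:**
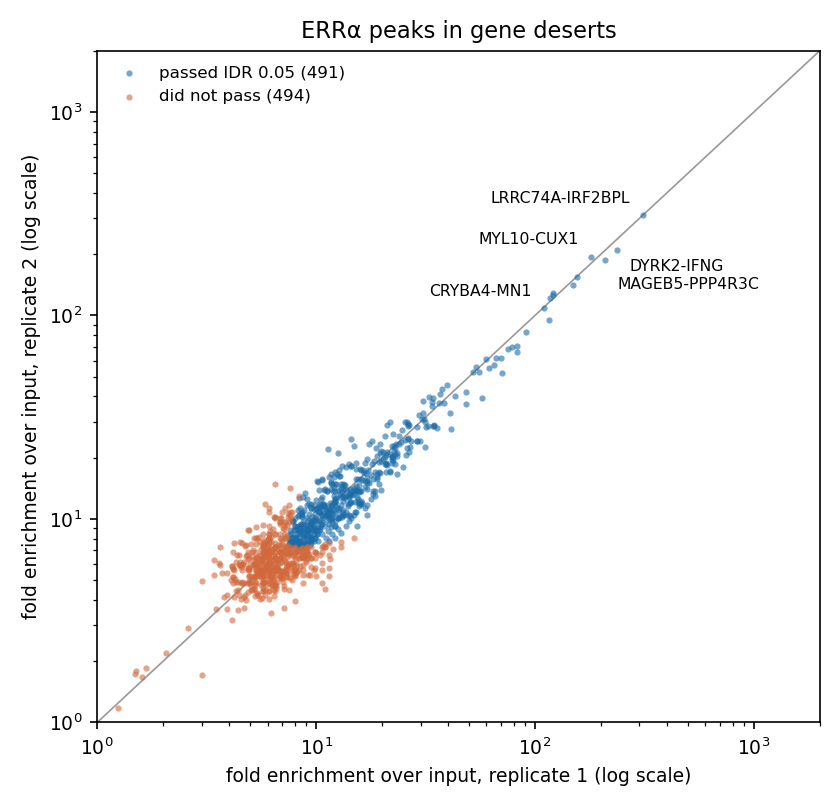
Fold enrichment over input of the 985 desert summits, with replicate 1 on the x axis, replicate 2 on the y axis, both on log scales, and 1 point per summit; the grey line marks equal folds. Points lie along the line up to the summit between LRRC74A and IRF2BPL at 310 and 312, and the 491 that passed IDR 0.05 are the upper part of the cloud.

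The strongest desert summits stood among the strongest ERRα peaks of the genome. The highest lay on chromosome 14 (GRCh38, peak from 76955717 to 76957197) between LRRC74A, a leucine-rich repeat gene, and IRF2BPL, a gene mutated in a neurological disorder, 68.0 kb from IRF2BPL. Its fold was 310 in replicate 1 and 312 in replicate 2, which gave it rank 3 among all 10026 matched peaks. A non-coding gene, LINC01629, was closer, at 3.06 kb. The summit was not alone. Another peak lay next to it (76957513 to 76958894), with folds of 121 and 128, and the remaining member of the same stretch had 15.5 and 13.8. IRF2BPL itself had a weak matched peak at a gene end, with folds of 4.26 and 5.59.

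The next desert summit on chromosome 12 (67752027 to 67753176) lay 87.1 kb from DYRK2, a protein kinase gene, and 402 kb from IFNG, which encodes interferon gamma. Its folds were 236 and 210. On the X chromosome, a peak from 26783285 to 26784554 had folds of 208 and 187 and was 565 kb from the nearest protein-coding gene end, that of MAGEB5, a member of a germ cell antigen family. The other side of that stretch is bordered by PPP4R3C, and a pseudogene, RNU1-142P, lay 6.41 kb from the summit. A peak on chromosome 7 (101687184 to 101688839) had folds of 180 and 194 and lay 59.0 kb from MYL10, a myosin light chain gene, and 128 kb from CUX1, a homeobox transcription factor gene. These summits were picked for their high mean fold, so their distance from the median desert summit follows from that choice.

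Further strong members were found on chromosome 2. One lay 65.0 kb from SDC1, which encodes the cell surface proteoglycan syndecan, on the side of LAPTM4A, a lysosomal membrane protein gene, with folds of 155 and 154. The peak between CYRIA, a gene of actin regulation, and RAD51AP2 had 148 and 141. Another of the 10 strongest was 104 kb from RYBP, a Polycomb group gene, on the side of PROK2 (117 and 122 on chromosome 3). A further one was 77.9 kb from MN1 (110 and 109 on chromosome 22). Non-coding genes lay 4.54 kb from the summit near RYBP and 3.83 kb from that near MN1. The non-coding gene nearest to the summit beside CYRIA was 209 kb away. Of the protein-coding genes that border the stretches of the 10 strongest, only IRF2BPL had a matched summit within 1 kb of an end. These are few genes, and such summits are rare in general. Of all 19974 protein-coding genes 8.88% had one, and of those that could have been nearest to a member and were not, 5.72% did.

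Desert summits made up 11 of the 50 strongest matched peaks (22%, exact 95% interval 11.5 to 36.0) and 15 of the 100 strongest (15%, 8.65 to 23.5). They were 41 of the 500 strongest (8.2%, 5.95 to 10.96) and 82 of the 1000 strongest (8.2%, 6.57 to 10.1), against 9.82% of the whole list. Of the 10 strongest, 1 was a desert summit (10%, 0.253 to 44.5). The share was thus above that of the whole list among the 50 and 100 strongest peaks and not among the 500 or 1000 strongest. Only the interval for the 50 strongest leaves out the 9.82% of the whole list. These ranks were chosen after the values had been seen and the difference was not tested.

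Away from the extremes, desert summits resembled the other matched peaks in strength. Median folds were 8.51 and 8.06 in replicates 1 and 2, against 8.66 and 8.42 for all other matched peaks. The difference of the median log2 mean fold was -0.021. In each replicate's own full list, desert and other peaks had medians of 7.14 and 7.07 in replicate 1 and of 7.25 and 7.25 in replicate 2, so the sign of this small difference depended on the list. Of the desert summits, 491 (49.8%, exact 95% interval 46.7 to 53.0) passed an irreproducible discovery rate (IDR) of 0.05, a measure of agreement of the replicates' ranks, against 50.4% of all 10026 matched peaks. The interval of the members' share holds that background. The study has 1 condition with 2 ChIP libraries and no other condition to set it against, so these comparisons carry no test. Peaks of 1 library are not replicates, and the intervals cover counting error only.

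Width differed more than strength. The median width of matched peaks was 598 bp in deserts (quartiles 486 and 762), 637 bp between genes but within 50 kb of a protein-coding gene, 631 bp inside protein-coding genes and 720 bp at protein-coding gene ends. At non-coding genes it was 637.5 bp. In the list of replicate 1 the median width was 466 bp in deserts and 491 bp elsewhere, and in that of replicate 2 it was 454 and 491 bp. Peaks at protein-coding gene ends were the widest in these lists (537 and 534 bp). The remaining places had medians of 479 to 488 bp in replicate 1 and 480 to 486 bp in replicate 2, closer to those of deserts. Both replicates thus had narrower peaks in deserts.

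**Figure D2:**
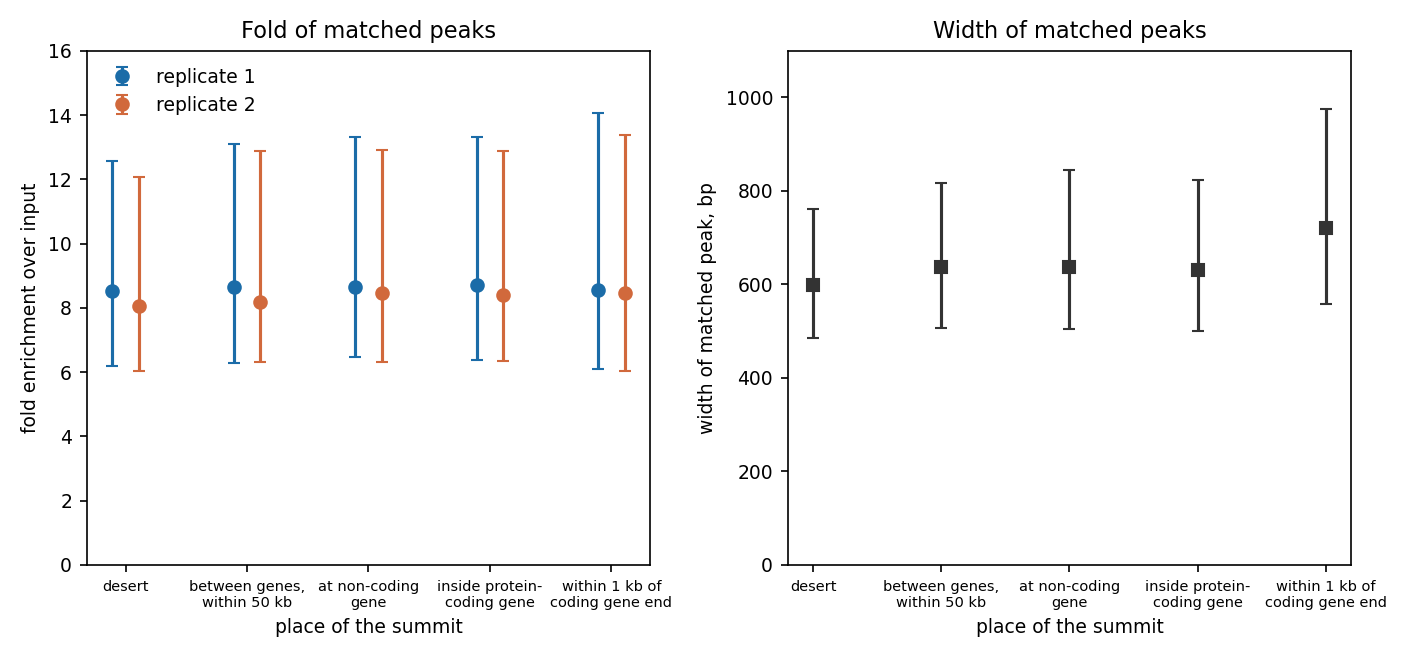
Median and quartiles of fold enrichment over input in each replicate (left) and of peak width in bp (right) for matched peaks by the place of their summit, with desert summits first on the x axis. Median folds are alike in all places, and median width is 598 bp in deserts and 720 bp at gene ends.

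Each replicate's own list gives a view that matching does not filter. Replicate 1 had 1400 desert peaks (9.98% of its list) and replicate 2 had 1226 (9.73%). Of these, 985 (70.4%, exact 95% interval 67.9 to 72.7) in replicate 1 overlapped a peak of replicate 2 by at least 1 bp, against 72.0% (71.2 to 72.8) of its other peaks. In replicate 2 the shares were 80.5% (78.2 to 82.7) in deserts and 79.9% (79.1 to 80.6) elsewhere. Sharing followed strength, as every desert peak in the top 20% of a list by fold was shared (250 in replicate 1 and 230 in replicate 2). In the bottom 20% by fold, 35.8% of desert peaks of replicate 1 and 50.9% of those of replicate 2 were shared. The other peaks of the lists followed the same course, with 99.96% and 100% shared in the top 20% and 37.7% and 49.7% in the bottom 20% of replicates 1 and 2. By that overlap of 1 bp, desert peaks found in 1 replicate alone were weak, with median folds of 5.54 in replicate 1 and 5.38 in replicate 2 and none above 10.9. With stricter matching, peaks that count as unshared reached 14.5 and 14.7 (overlap of 50% of both peaks) and 21.8 and 30.07 (summits within 100 bp). By the overlap of 1 bp, the strongest unshared desert peaks lay between NMUR2 and GRIA1 in replicate 1 (10.6) and beside ANAPC1 in replicate 2 (10.9).

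Deserts held few peaks for their size. The rule allows 877 Mb, which is 28.95% of the 3029 Mb spanned by genes on these chromosomes, and 9.82% of the matched summits lay there. That is 1.12 summits per Mb in deserts, against 4.201 per Mb in the rest of the span. In the replicates' own lists the densities were 1.60 and 5.87 per Mb in replicate 1 and 1.40 and 5.29 in replicate 2. No list of assembly gaps or unmappable sequence was used, and such stretches, where no peak can be called, count as allowed sequence here. Their part in the difference was not tested.

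Within deserts the density fell with distance from protein-coding genes in both replicates. At 50 to 100 kb there were 377 members, or 2.51 per Mb of allowed sequence. The density was 1.72 at 100 to 200 kb (284 members), 0.967 at 200 to 500 kb (213), 0.553 at 500 to 1000 kb (81) and 0.154 beyond 1000 kb (30). The list of replicate 1 gave 3.43, 2.39, 1.39, 0.847 and 0.307 per Mb in the same order, and that of replicate 2 gave 3.06, 2.12, 1.20, 0.724 and 0.236. Beyond 1000 kb, most of the allowed sequence lies in 30 stretches of over 1 Mb that hold no gene of any kind. Without them 28 of the 30 members remain in that class and their density is 0.569, close to the 0.618 then found at 500 to 1000 kb. The fall from 50 kb to 500 kb is also present without these stretches (2.52, 1.71 and 1.00 per Mb).

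**Figure D3:**
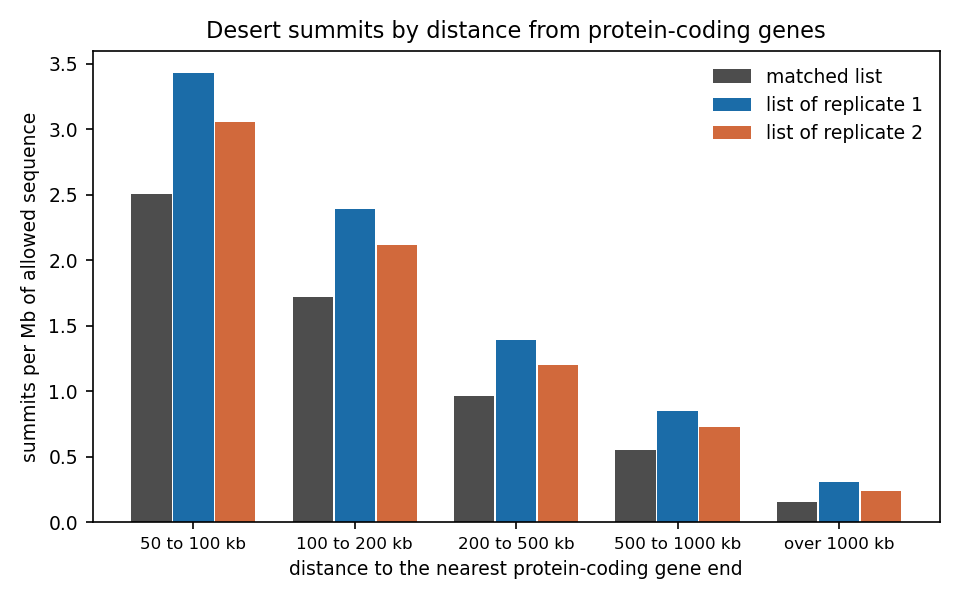
Desert summits per Mb of sequence that the rule allows (y axis), by distance to the nearest protein-coding gene end (x axis), for the matched list and the own list of each replicate. The bars of the matched list go from 2.51 at 50 to 100 kb down to 0.154 beyond 1000 kb, and both replicates have the same order.

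Strength did not follow distance as clearly. Median folds in replicates 1 and 2 were 8.65 and 8.18 at 50 to 100 kb and 8.58 and 8.46 at 100 to 200 kb. They were 8.74 and 7.79 at 200 to 500 kb, 7.99 and 7.29 at 500 to 1000 kb, and 8.18 and 7.71 beyond 1000 kb. The median of the mean fold was 8.51, 8.46, 8.17, 7.64 and 8.09 in the same order. The share that passed IDR 0.05 was 51.2%, 52.8%, 46.9%, 40.7% and 50%. The most remote member lay on chromosome 4 between PCDH7, a protocadherin gene, and ARAP2, a GTPase regulator, 2174 kb from ARAP2. It had folds of 8.75 and 9.67 and passed IDR 0.05. The next most remote, 2064 kb from UQCRFS1 on chromosome 19, had 3.78 and 4.13 and did not pass. Around the 50 kb threshold itself, the members just inside lay near SMURF2 (50.3 kb, folds 11.7 and 15.1), MVB12B (50.4 kb, 17.5 and 14.98) and NKD1 (50.4 kb, 9.51 and 8.06). The summits just outside lay near PRSS23 (49.99 kb, folds 4.74 and 6.01), LINGO1 (49.9 kb, 8.75 and 8.86) and MLN (49.9 kb, 30.6 and 32.5).

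Density differed between chromosomes. Chromosome 20 had 2.51 members per Mb of allowed sequence, chromosome 12 had 2.01 and chromosome 17 had 1.78. At the other end were chromosome 21 with 0.198 and X with 0.235, from 4 and 14 members. The lists of replicates 1 and 2 gave 3.54 and 3.19 per Mb for chromosome 20, 0.445 and 0.198 for chromosome 21, and 0.403 and 0.286 for X. Both lists thus had chromosome 20 well above 21 and X, while the order of 21 and X differed between them. By the share of a chromosome's own matched summits that were members, the order was different. Members were 8.98% on chromosome 20, 10.3% on 12, 3.92% on 17, 6.45% on 21 and 15.7% on X, against 9.82% of the whole list. This cell line carries extra and lost chromosome copies, and copy number along the genome was not analysed here.

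Members were spread thinly over many deserts, with several in a few of them. Of 2695 stretches that hold allowed sequence, 613 (22.7%) had at least 1 member, 412 of these had 1, and 89 had 3 or more. The 10 deserts with the most members held 87 of the 985 (8.83%). As chains of neighbours at most 50 kb apart, 111 members formed 30 chains of 3 or more and 708 members had no other within 50 kb.

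The stretch with the most members was the 1118 kb between CRYBA4, a lens crystallin gene, and MN1, which encodes a transcriptional coregulator rearranged in some meningiomas and leukaemias. It held 22 members on chromosome 22, 11 more than any other desert, and 25 and 26 desert peaks in the lists of replicates 1 and 2. Folds ranged from 4.56 to 110 in replicate 1 and from 4.89 to 109 in replicate 2, with medians of 10.1 and 9.47, and 11 of the 22 passed IDR 0.05. The summit nearest to MN1, at 77.9 kb, was the highest by far. The next highest, with 26.3 and 29.4, was 445 kb from CRYBA4. Of the 31 members on chromosome 22, these are 22, and neither CRYBA4 nor MN1 had a matched summit at an end. Together with summits closer to genes or in non-coding genes, 29 matched peaks lay between them.

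A stretch of chromosome 16 had full deserts on both sides of a group of forkhead genes. Between IRF8, a transcription factor gene of blood cells, and FOXF1, a forkhead factor of lung and gut mesenchyme, there were 7 members. Of these, 5 formed a chain of 65.7 kb at 97.7 to 163 kb from FOXF1, with folds of 4.81 to 22.2 in replicate 1 and 6.68 to 18.9 in replicate 2. The other 2 lay on the IRF8 side with folds of 4.95 and 6.52 in replicate 1. Beyond the forkhead gene FOXL1, the stretch up to C16orf95 held 11 members, of which 8 passed IDR 0.05. Its highest summits had folds of 35.9 and 28.0 and of 34.6 and 29.1, and 6 members within 103 kb formed a chain with folds of 9.51 to 23.2 in replicate 1.

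**Figure D4:**
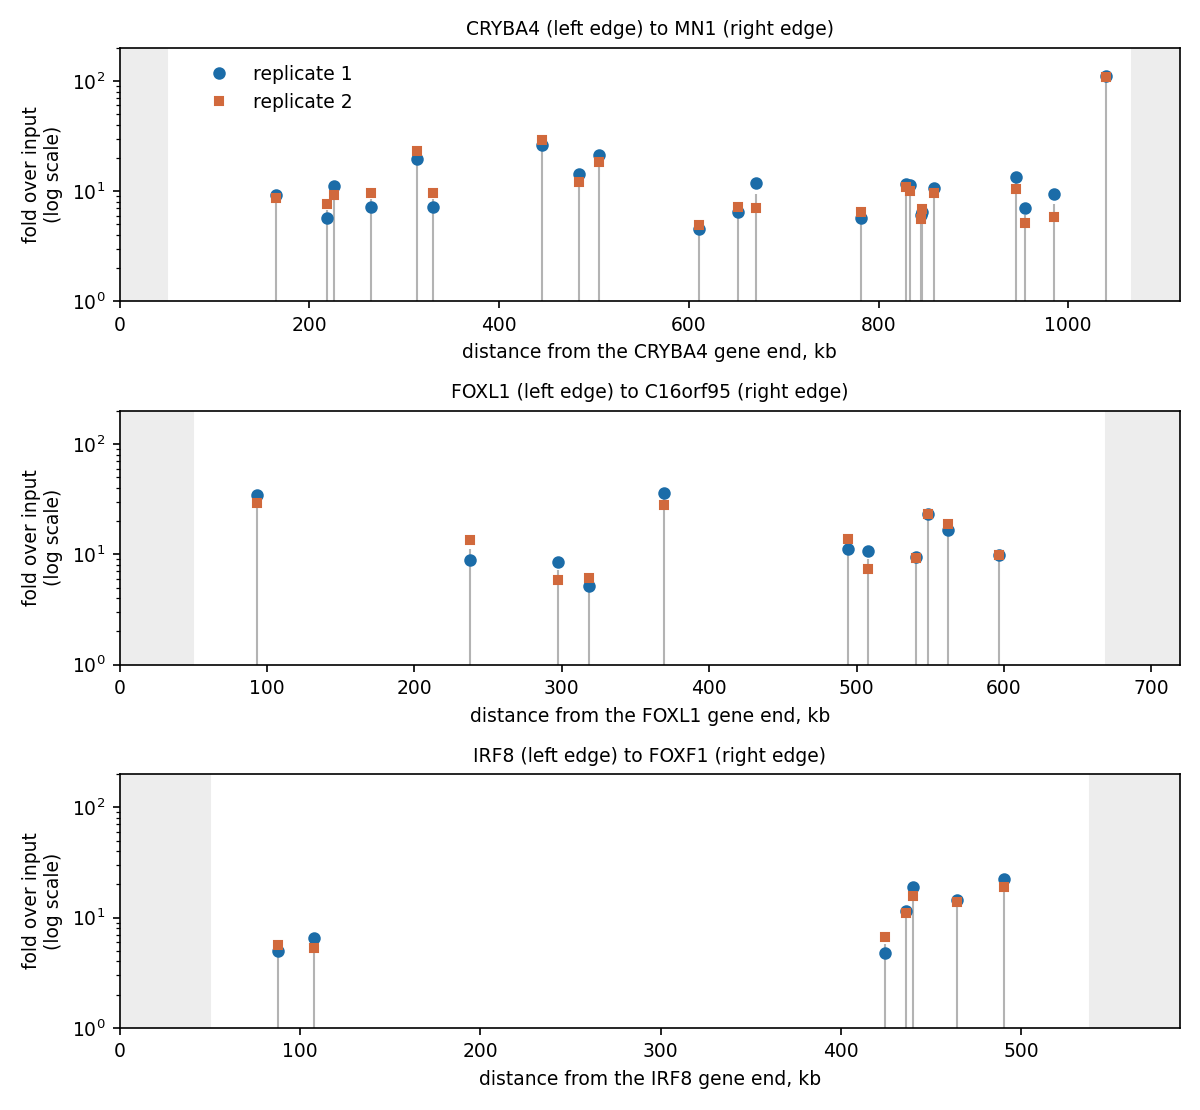
Fold enrichment over input (y axis, log scale) of each member in 3 deserts against its distance in kb from the gene at the left edge (x axis), with replicate 1 as circles, replicate 2 as squares and a grey line up to their mean; shaded ends are the 50 kb next to genes that the rule leaves out. The summit beside MN1 stands at 110 and 109, and 5 of the 7 summits between IRF8 and FOXF1 lie towards FOXF1.

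Of the other deserts among the 10 fullest, the 442 kb between DYSF, a gene of muscle membrane repair, and CYP26B1, an enzyme that degrades retinoic acid, held 8 members, with a pair at 20.2 and 25.6 in replicate 1 and 21.3 and 20.6 in replicate 2. Between TFAP2C, which encodes the AP-2γ transcription factor, and BMP7, a growth factor gene, there were 7 members, the highest at 31.5 and 29.998, 120 kb from BMP7. The 7 members between ACTBL2, an actin-like gene, and PLK2, a polo-like kinase gene, had folds of 5.63 to 15.8 in replicate 1 and 4.50 to 17.6 in replicate 2.

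On chromosome 8, 3 of the 10 fullest deserts were found. Between ASAP1, a regulator of Arf GTPases, and ADCY8, an adenylyl cyclase gene, all 6 members passed IDR 0.05, with folds of 7.69 to 22.7 in replicate 1 and 8.48 to 21.5 in replicate 2, and 5 of them formed a chain of 85.6 kb. The 1962 kb between MYC, the growth-promoting transcription factor gene, and GSDMC, a gasdermin gene, held 6 members, with folds of 4.39 to 19.7 in replicate 1 and 4.89 to 15.7 in replicate 2. There, 22 matched peaks lay between the genes in all, most of them at non-coding genes or within 50 kb and so not members. Between C8orf90 and TSNARE1, 6 members had folds of at most 8.90 and 8.42, and 1 passed IDR 0.05.

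**Figure D5:**
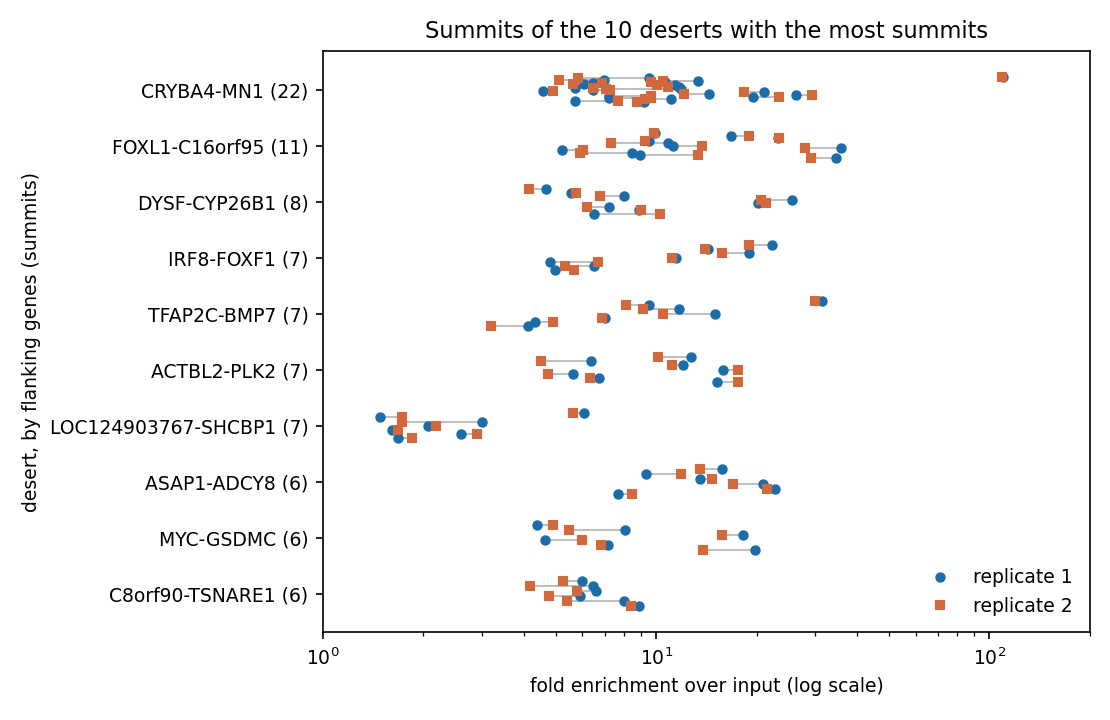
Fold enrichment over input (x axis, log scale) of each member in the 10 deserts with the most members, named by their flanking genes with the number of members in brackets; circles are replicate 1, squares replicate 2 and lines join the same summit. The summit beside MN1 stands highest at 110 and 109, and in the stretch from LOC124903767 to SHCBP1 6 of 7 members have folds under 3.

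The desert between LOC124903767 and SHCBP1 on chromosome 16 stood apart from the other 9. It spans the centromere, is 12189 kb long and held 7 members with folds of 1.48 to 6.09 in replicate 1 and 1.68 to 5.64 in replicate 2, none of which passed IDR 0.05. Of all 10026 matched peaks, 12 had a mean fold under 3, and 8 of these were desert summits, 6 of them in this stretch. The remaining 2 lay near CWH43 on chromosome 4 and near WSB1 on chromosome 17. The −log10 q of these 6 was 8.20 to 27.0 in replicate 2. In replicate 1 it was 3.28 to 21.4 for 5 of them. The interval of the remaining one is not that of a single peak in the replicate's own list, so no −log10 q could be looked up. The input level in this stretch was not tested.

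Among the 89 deserts with 3 or more members, shorter stretches led by summits per Mb of allowed sequence. Stretches with fewer members are not ranked here and can be denser, such as that between EMSY and LRRC32, where 1 member gave 303 per Mb. Between ME3, a malic enzyme gene of mitochondria, and PRSS23, a serine protease gene, 3 members lay within 5.42 kb, and the stretch from LRRC74A to IRF2BPL came second. Stretches from FAM136A to TGFA, an EGF receptor ligand, and from SMNDC1 to DUSP5, a MAP kinase phosphatase, were also among the first 10 of these 89. The 10 of these that led by density and the 10 that led by number had 0 in common.

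Genes of several groups were looked up as nearest neighbours of desert summits. Of the 4264 protein-coding genes that are nearest to some allowed sequence, 712 (16.7%) were the nearest gene of at least 1 member. Of 83 such developmental transcription factors, 29 were (34.9%, exact 95% interval 24.8 to 46.2). These genes also border long deserts. Gene-free stretches over 1 Mb were kept in the densities of the gene lists and of all genes, and distance from genes was not matched. Per Mb of allowed sequence nearest to the developmental transcription factors there were 1.90 members, against 1.12 for all genes. The list of replicate 1 gave 2.96 against 1.60 and that of replicate 2 gave 2.31 against 1.40. The strongest was near SOX9, a factor of cartilage and gonad development, with folds of 83.0 and 70.9 at 118 kb. TBX3, a T-box factor of limb and mammary development, had 31.8 and 28.4 at 90.2 kb.

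Adhesion and synaptic genes, which often border very long deserts, were the nearest gene in 18 of 42 cases (42.9%), but with 0.526 members per Mb of the 43.7 Mb nearest to them. The summits near CDH4 (23.8 and 23.4) and CDH11 (21.7 and 20.9), both cadherin genes, were the strongest, followed by those near TENM3, a teneurin gene (20.2 and 19.7), and the axon guidance receptor gene ROBO1 (14.3 and 13.4). The density was below that of all genes in the list of replicate 1 (0.847 against 1.60) and in that of replicate 2 (0.641 against 1.40). No test of either list was made, and neighbouring summits are not independent.

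Growth factor signalling genes were nearest in 7 of 21 cases (33.3%, exact 95% interval 14.6 to 57.0, which holds the 16.7% of all genes). They had 1.43 members per Mb in the matched list, and 2.66 peaks per Mb in the own list of each replicate. These included the MAP kinase phosphatase genes DUSP6 (18.9 and 20.5 at 229 kb) and DUSP4 (17.1 and 15.3 at 299 kb), TGFA (14.5 and 24.6 at 55.7 kb) and the feedback inhibitor SPRY2 (9.89 and 10.6 at 1032 kb). Nuclear receptors were nearest in 7 of 19 cases (36.8%, 16.3 to 61.6, which also holds it), with 1.60 members per Mb in the matched list and 2.40 and 1.60 in the lists of replicates 1 and 2. They were led by NR2F1, an orphan receptor of neural development (14.5 and 13.7 at 675 kb), NR3C1, the glucocorticoid receptor (12.9 and 8.54 at 72.6 kb), NR5A2, an orphan receptor of liver and gut (7.23 and 8.06 at 618 kb), and the clock-linked receptor gene RORA (5.71 and 7.25 at 155 kb). ESRRB, which encodes the related receptor ERRβ, was also among these 7, and NR2F1 and NR2F2 are in the list of developmental transcription factors too.

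Small groups had few members. AP-1 and Hippo genes were nearest in 3 of 7 cases, namely JUN (5.54 and 5.64), AMOT (4.19 and 5.71) and CCN2 (4.42 and 4.45), all weak. Matrix and invasion genes were nearest in 3 of 17 cases, led by the protease gene ADAMTS9 (19.7 and 16.9 at 74.9 kb), with COL12A1, a collagen gene (5.92 and 5.75), and TNC, which encodes tenascin (6.06 and 4.45). Of 7 known ERRα targets that border allowed sequence, WNT11 was nearest to 2 members, the stronger with folds of 6.99 and 5.51. Members per Mb were 7.81 for AP-1 and Hippo genes, 7.28 for known ERRα targets and 2.15 for matrix and invasion genes. All of these were above the 1.90 of developmental transcription factors, but from only 0.512, 0.275 and 1.40 Mb of allowed sequence. The list of mitochondrial energy genes had 49 members, of which 9 could have been nearest and 0 were (exact 95% interval up to 33.6%). That list is not complete. Outside it, NDUFV2, which encodes a subunit of respiratory complex I, was nearest to 2 members, the stronger with folds of 55.4 and 52.8 at 85.7 kb. UQCRFS1 of complex III, named above, and SUCLG1, a subunit gene of a citric acid cycle enzyme, were also nearest genes. These were picked out after their values had been seen.

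Peaks at gene ends were about as frequent for genes nearest to a desert summit as for genes that could have been. Of the 712 genes nearest to a member, 34 (4.78%, exact 95% interval 3.33 to 6.61) had a matched summit within 1 kb of an end. Of the 3552 genes that could have been nearest and were not, 203 had one (5.72%, 4.97 to 6.53), and of all 19974 protein-coding genes 8.88% did. MYC and SOX9 were among the 34, and the matched peak at an end of MYC was weak, with folds of 4.92 and 5.27.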

How the data were processed

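The members, gene lists and comparisons were chosen with earlier results of these data known. Reads were 81 bp long, per the labels, and the number of reads per library is not used here. The submitters' processing notes name the build hg38 and the tools MACS2 2.2.6, Bowtie2 2.3.5, deepTools, SAMtools, Picard and Trim Galore 0.6.5. Tool settings, those of IDR included, were not given in the sources used here. Per peak, the deposited lists give the authors' fold enrichment (a ratio of ChIP to input), −log10 p, −log10 q and a score. In the deposited lists −log10 q started at 1.35 (replicate 1) and 1.37 (replicate 2), and the IDR score ran from 154 to 1000, so the matched list was not filtered on IDR. An IDR of 0.05 is a score of 540. Read counts per peak were not used, so the depth behind a fold is unknown, and intervals cover counting error of peaks only. Folds printed as a pair are those of replicates 1 and 2.

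Peaks on Y and on other contigs (305 of the matched list) were left out. The distance from each summit, counted from 1, was computed to 59098 RefSeq genes of GRCh38.p14, of which 19974 are protein-coding, with Python 3.11.15, pandas 2.3.3 and NumPy 2.4.6. The distance code was checked on made-up positions with known answers. Allowed sequence was measured every 100 bp between the first and last gene of a chromosome. Exact binomial intervals used SciPy 1.17.1. No genome sequence was used here, so no sequence or motif is given. Named summits and genes are the 10 strongest members, the 10 fullest deserts, the 5 longest chains by members, the 3 summits on each side of the threshold and at most 4 genes a list; a few of these are not reported here. Others (the most remote members, NDUFV2, UQCRFS1, SUCLG1, EMSY, peaks of 1 replicate, densities per Mb, ESRRB, MYC's and IRF2BPL's own peaks) were named after their values had been seen.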

Additional observations from a re-analysis of the deposited data

How the results depend on the processing

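With all protein-coding genes over 100 kb away in place of 50 kb there were 608 members (6.06% of summits), with 30 kb 13.2%, with every gene over 5 kb away 8.46%, and with matched peaks that passed IDR 0.05 there were 491. The lists of single replicates gave 1226 and 1400 desert summits (9.73% and 9.98%), 43 and 58 chains, 8 and 10 of the 10 fullest deserts, and 1.65 and 1.85 times the density of all genes at developmental transcription factors. The difference in median log2 fold was -0.033 at 30 kb, -0.047 at 100 kb, -0.051 for IDR 0.05, -0.056 with a −log10 q of at least 5 in both replicates, and 0 and 0.015 in the single lists, so no direction is given for it. With that −log10 q, 57.8% of members passed IDR 0.05. The share of the other matched peaks at this setting is not given. The 57.8% therefore cannot be set against the share of all matched peaks given above. Shared desert peaks of replicate 1 fell to 66.9% with an overlap of 50% of both peaks and 61.4% with summits within 100 bp, and those of replicate 2 to 76.6% and 70.2%. Ranked by summits per Mb among deserts with 3 or more members, 0 of the 10 fullest deserts stayed among the first 10. The density beyond 1000 kb was 6.14% of that at 50 to 100 kb, 7.71% and 8.97% in the single lists, and 22.6% without gene-free stretches over 1 Mb. That last setting, LOC genes left out (996 members), summits counted from 0 (984), peaks of mean fold under 3 left out, and the single lists for chains, rankings, densities and gene lists were added after the data had been seen. No paired analysis was possible because the inputs have no values of their own in the lists and no result comes from a test. Depth per peak is unknown, and 2 ChIP libraries limit every comparison.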
